A study of Homo sapiens with 17 samples.

Results

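The EGF receptor family and its ligands are described here as 10 genes of the 26457 RefSeq genes in the deposited mRNA-seq table, found by their symbols. They are 3 receptors (EGFR, ERBB2 and ERBB3) and 7 ligands (TGFA, HBEGF, EREG, BTC, AREG, NRG1 and EPGN). All 3 receptors and 4 of the ligands had a mean of at least 2.5 normalized reads over the 8 libraries and were tested. AREG, NRG1 and EPGN were below that mean.

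The experiment used SW480, a human colon cancer cell line with a mutant p53 (mutp53). All cells carried a stable, doxycycline-inducible shRNA, and doxycycline and puromycin were in the medium of every shRNA culture. Control cells expressed an shRNA against LacZ, a bacterial gene absent from human cells, and mutp53-depleted cells expressed an shRNA against p53. Each was harvested without TNF-α (untreated, 0 h) or following a 16 h exposure to 12.5 ng/ml TNF-α (treated), and each of the 4 groups had 2 biological replicates, A and B. The control and mutp53-depleted cells are separate stable derivatives of SW480, so an effect of the p53 shRNA and any other difference between these derivatives cannot be told apart. The libraries held 6108488 to 13809578 reads on genes, and replicate A was the larger library of every group. A normalized read is 1 read multiplied by a factor for its library, between 0.67 and 1.515, that brings all libraries to the same total. The values of a group are given with replicate A before replicate B. The 5 epithelial markers were all detected. Of 5 intestinal markers CDX2 and VIL1 passed the mean, CDX1 had no reads, and VIL1 had 545 and 480 normalized reads in untreated control cells but 8.71 and 12.3 in the depleted counterpart. CDX2 had 981 and 965 there against 1038 and 1082 after depletion, and with TNF-α 462 and 467 against 509 and 569. The summed intestinal markers lay between 1448 and 1532 normalized reads in the untreated control, 579 and 590 in the treated control, 1049 and 1097 in untreated and 517 and 578 in treated mutp53-depleted cells. Markers above the mean of 2.5 normalized reads numbered 2 of 5 for leukocytes (summed level 42.4 to 81.3 over all libraries), 1 of 4 for endothelium (5.7 to 28.8) and 2 of 4 for fibroblasts. The fibroblast sum was 37.7 to 39.4 in the untreated control, 28.5 to 31.9 in the treated control, 158 to 176 in untreated and 56.2 to 59.2 in treated mutp53-depleted cells. PTPRC of leukocytes, KDR of endothelium, and COL3A1 and DCN of fibroblasts had no reads in any library. The summed epithelial markers came to 64731 and 69182 normalized reads in untreated control cells and 55705 and 55803 in treated ones, and to 51358 and 51432 in untreated and 42212 and 43320 in treated mutp53-depleted cells. KRT8 and KRT18 made up most of this sum. CDH1 had 485 and 467 in the untreated and 87.0 and 78.25 in the treated control. EPCAM had 5976 and 5687 in the untreated control against 2404 and 2367 after depletion. KRT19 went the other way, with 7394 and 7114 against 8647 and 8716. The part of the markers in the results was not tested.

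The receptors of this family are membrane tyrosine kinases that work as pairs. EGFR binds EGF, TGF-α, amphiregulin and epigen, and it shares HB-EGF, betacellulin and epiregulin with ERBB4. ERBB3 binds neuregulins but has almost no kinase activity of its own, and ERBB2 binds no ligand and acts as the partner of the others. The ligands are made as membrane precursors that metalloproteases release from the cell surface. Paired receptors recruit adaptors that switch on RAS, the ERK kinases and PI3-kinase, and the pathway induces inhibitors of itself. In the colon, EGFR signaling maintains crypt proliferation, and EGFR is a drug target in colorectal cancer.

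The 250 bases upstream of the start sites of EGFR and HBEGF are shown because these genes are the receptor and the ligand whose mRNA passed the test and rose at least 2-fold with TNF-α, EGFR in control cells and HBEGF in mutp53-depleted cells. They are RefSeq windows on GRCh38.p14, printed in the direction of transcription, with the GC box (GGGCGG, searched on both strands) in capitals. The EGFR window is chr7:55018767-55019016 on the plus strand and the HBEGF window is chr5:140346604-140346853 on the minus strand.
EGFR: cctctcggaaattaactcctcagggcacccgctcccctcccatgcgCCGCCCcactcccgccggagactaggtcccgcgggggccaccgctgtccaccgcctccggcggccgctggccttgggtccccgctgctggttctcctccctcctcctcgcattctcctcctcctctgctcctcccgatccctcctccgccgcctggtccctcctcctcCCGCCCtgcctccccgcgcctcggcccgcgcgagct
HBEGF: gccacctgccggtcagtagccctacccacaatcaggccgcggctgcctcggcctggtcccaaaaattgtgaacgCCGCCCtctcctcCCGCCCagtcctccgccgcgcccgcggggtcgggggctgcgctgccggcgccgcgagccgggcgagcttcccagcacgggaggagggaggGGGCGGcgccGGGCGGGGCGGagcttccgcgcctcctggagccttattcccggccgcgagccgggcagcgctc
The EGFR window is 73.6% GC with 2 GC boxes, and the HBEGF window is 76.4% GC with 5 GC boxes. Among 35116 RefSeq windows of the same length the median was 58.0% GC, and 42.6% held a GC box. Neither printed window held TATAAA (10.7% of all windows), the AP-1 letters TGANTCA (6.6%), the NF-κB letters GGGA and CC with 4 bases between them (22.6%) or the ETS letters CCGGAAG (8.5%). RefSeq gives a second EGFR window, chr7:55109589-55109838 on the plus strand, which overlaps an exon and is not printed. It had 38.8% GC, 2 TATAAA, 2 matches to the AP-1 letters and no GC box. The EREG window had 58.0% GC, 1 TATAAA and no GC box, and the BTC window held 2 matches to the NF-κB letters. A TGFA window held 1 match to the NF-κB letters. The ERBB2 window held 1 match to the AP-1 and 2 to the ETS letters, and both of these windows overlap exons. The EPGN and AREG windows held 1 TATAAA each. Such matches describe the letters only and not the binding of a factor.

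After depletion of mutp53, the mRNAs of all 3 receptors were lower before and after TNF-α, those of EGFR and ERBB3 by more than 2-fold. TGFA, the most abundant of the tested ligands, was lower by less than 2-fold at both times. In bulk RNA, fewer cells that express a gene and less of its RNA per cell cannot be told apart. The other tested ligands were measured with few reads, between 25 for BTC and 468 for HBEGF over all libraries. Changes are given as the difference of log2(normalized reads + 1) with its standard error (SE) from limma, a scale on which low values show a smaller change than their ratio. A called gene had at least a 2-fold change and a p below 0.05 after Benjamini-Hochberg adjustment over the 14800 genes tested. BTC passed the minimum mean only through its untreated control libraries, so it is described without a test and left out of the counts of calls. At 0 h, 2 of the other 6 tested members were called lower (EGFR and ERBB3) and none higher, against 15.4% of all tested genes called in either direction, 9.55% lower and 5.89% higher. At 16 h, 3 were called lower (EGFR, ERBB3 and EREG) and none higher, against 15.2% of all genes, 10.2% lower and 5.03% higher. At the adjusted p alone, 4 of the 6 fell at 0 h and 5 at 16 h, against 25.2% and 26.5% of all genes. No member rose, where 27.3% of all genes rose at 0 h and 24.9% at 16 h. The median log2 change of the 6 members was -0.50 at 0 h and -1.0 at 16 h, where the medians of all tested genes were 0.028 and -0.007.

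**Figure D1:**
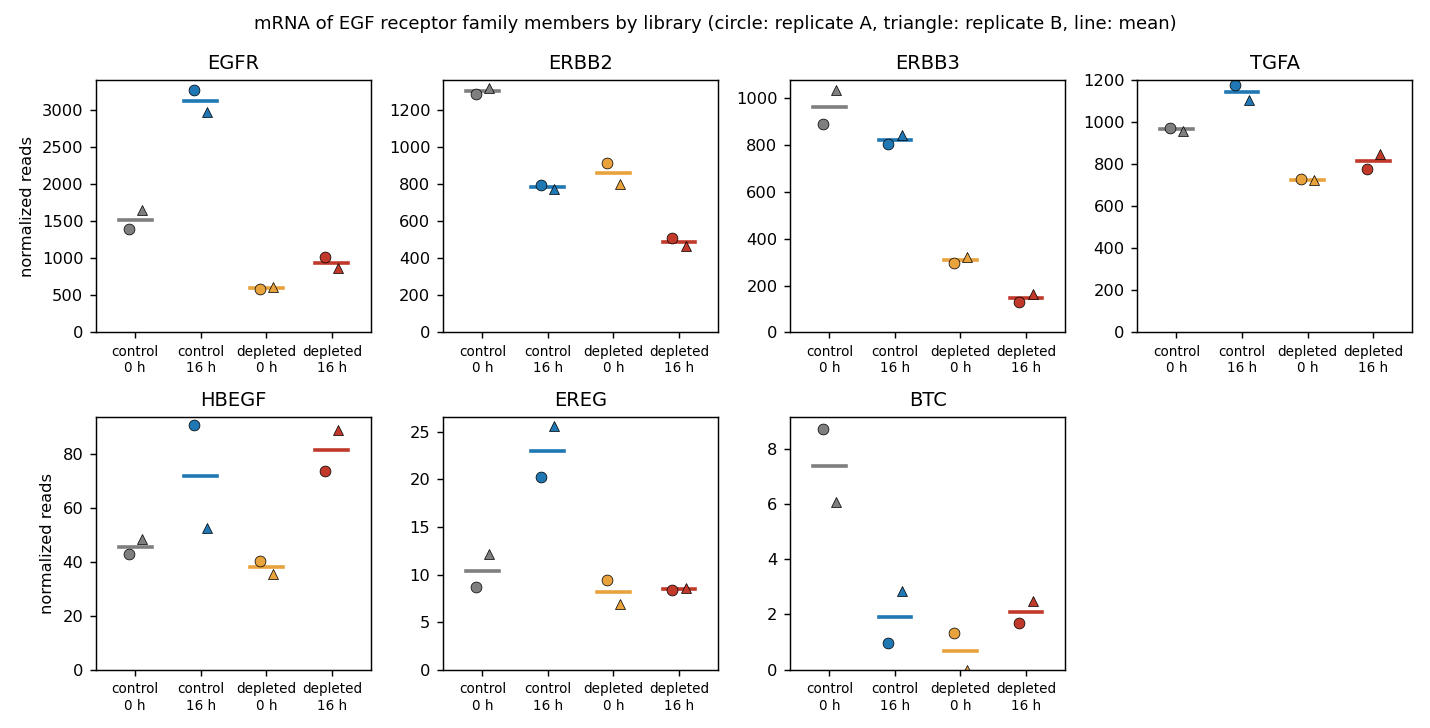
Normalized reads (linear axis from 0) of the 7 tested members in each library, with circles for replicate A, triangles for replicate B and lines for the mean of the 2 replicates. EGFR, ERBB2, ERBB3 and TGFA are lower in the mutp53-depleted libraries than in the control libraries of the same time, without overlap, while HBEGF overlaps at 16 h.

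EGFR (NM_005228, hg19 chr7:55086725-55275031, plus strand), the receptor of most ligands in this set, had 1394 and 1654 normalized reads in untreated control cells and 588 and 618 after depletion. With TNF-α it had 3277 and 2971 in the control and 1017 and 870 after depletion. The groups did not overlap, and both depleted groups lay below both control groups. EGFR was 2.53-fold lower at 0 h (log2 change -1.33, SE 0.09, limma adjusted p = 1.3e-09) and 3.31-fold lower at 16 h (log2 change -1.73, SE 0.09, limma adjusted p = 4.1e-11). The difference between these depletion effects, which is also the difference between the TNF-α responses of the cells, was -0.40 (SE 0.13, limma adjusted p = 0.127) and did not pass the test.

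ERBB3 (NM_001982, hg19 chr12:56473809-56497291, plus strand), the neuregulin receptor, showed the largest depletion effect among the receptors. It had 890 and 1033 normalized reads in untreated and 803 and 842 in treated control cells. After depletion it had 298 and 324 untreated and 131 and 165 treated. No group overlapped another. ERBB3 was 3.10-fold lower after depletion at 0 h (log2 change -1.63, SE 0.11, limma adjusted p = 1.3e-09) and 5.56-fold lower at 16 h (log2 change -2.48, SE 0.11, limma adjusted p = 6.8e-12). Its log2 change at 16 h ranked 213 from the lowest among the 14800 tested genes.

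ERBB2 (NR_110535, hg19 chr17:37856231-37884915, plus strand), the partner receptor without a ligand, had 1283 and 1320 normalized reads in untreated control cells and 915 and 802 after depletion. With TNF-α it had 794 and 775 in the control and 511 and 466 after depletion. The depleted libraries were below the control libraries of the same time, and the 0 h depleted libraries were above the 16 h control libraries. ERBB2 fell to a lesser extent than EGFR and ERBB3, by 1.52-fold at 0 h (log2 change -0.60, SE 0.08, limma adjusted p = 7.9e-06) and 1.61-fold at 16 h (log2 change -0.68, SE 0.08, limma adjusted p = 1.8e-06).

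**Figure D2:**
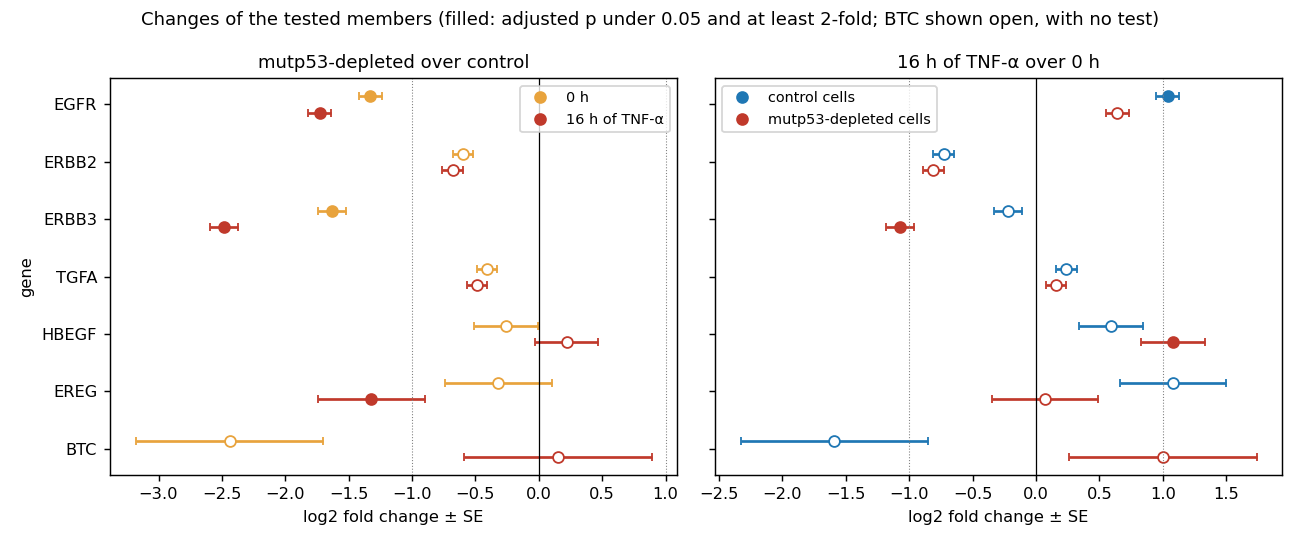
Log2 fold change of each tested member, with bars for 1 SE, for mutp53-depleted over control cells (left, at 0 h and 16 h) and for 16 h of TNF-α over 0 h (right, in control and mutp53-depleted cells). Filled points have an adjusted p under 0.05 and at least 2-fold, and BTC is drawn open with no test; dotted lines mark 2-fold. ERBB3 lies farthest left at 16 h at -2.48, and the bars of EREG and BTC are the widest.

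Genes near EGFR on chromosome 7 were also lower in mutp53-depleted cells. Among the 10 tested genes closest to EGFR, 6 were called lower at 0 h and 3 at 16 h. Their median log2 change was -1.06 at 0 h and -0.77 at 16 h. The median log2 change of its 50 nearest tested genes, averaged over both times, was -0.80, and chromosome 7 as a whole, with 743 tested genes, had a median of -0.63 untreated and -0.64 treated. EGFR fell below these medians but within the range of the 50 genes, which reached -1.88 at 0 h and -1.99 at 16 h. With the median of its neighbors subtracted from the depleted libraries, the log2 change of EGFR was -0.53 at 0 h (limma adjusted p = 0.00012) and -0.93 at 16 h (limma adjusted p = 2.5e-07), both under 2-fold. These p-values take the median as fixed and leave out the spread among the neighbors. The neighborhood of ERBB3 moved the other way. Its 50 nearest tested genes had a median of 0.26, chromosome 12 had a median of 0.56 at 0 h and 0.54 at 16 h, and none of the 10 closest genes was called lower at either time. Around ERBB2 the median of the 50 genes was 0.32, while its 10 closest genes had a median of -0.41 at 0 h and -0.09 at 16 h. Of these 10, 2 were called lower at 0 h, and 1 lower and 1 higher at 16 h. With the median of the 50 genes subtracted, the log2 change of ERBB2 was -0.92 at 0 h and -1.0 at 16 h. On this scale ERBB2 no longer fell to a lesser extent than EGFR, at -0.53 and -0.93. The median of the 50 genes was -0.05 around TGFA and -0.03 around HBEGF. Whether the shifts of whole chromosomes come with the shRNA or with the derivative of the line cannot be told apart.

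**Figure D3:**
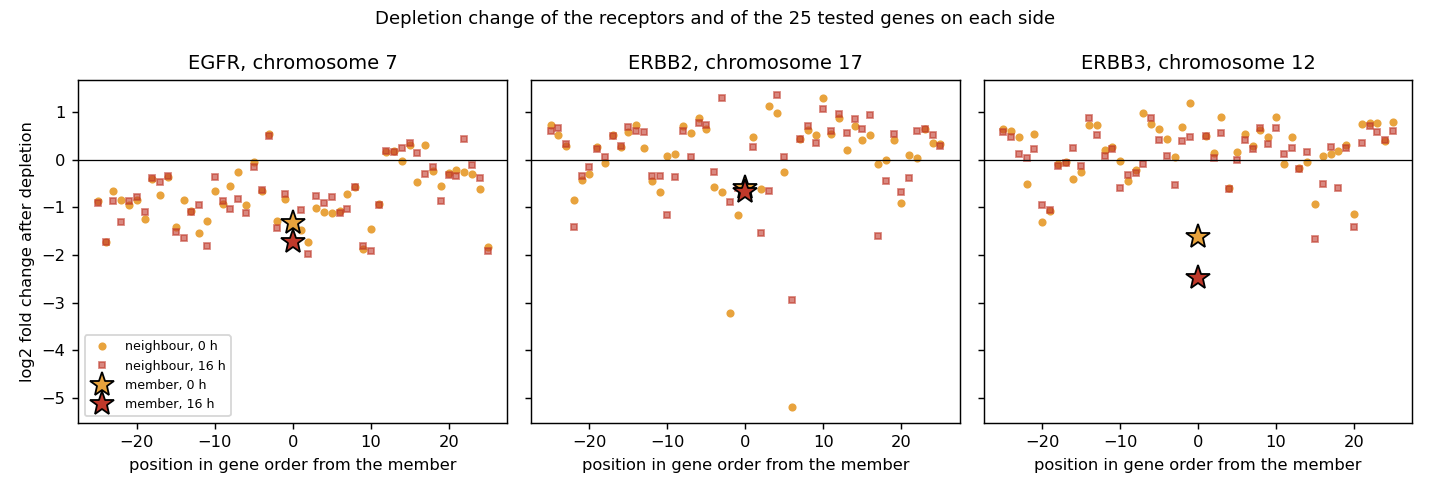
Log2 fold change after depletion of EGFR, ERBB2 and ERBB3 (stars) and of the 25 tested genes on each side of them (small points) at 0 h and 16 h, ordered by position in the genome. The neighbors of EGFR scatter around a median of -0.80, whereas ERBB3 lies below neighbors with a median of 0.26.

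TGFA (NM_001099691, hg19 chr2:70674412-70781147, minus strand), which encodes the EGFR ligand TGF-α, had 972 and 959 normalized reads in untreated control cells and 728 and 724 after depletion. With TNF-α it had 1178 and 1103 in the control and 776 and 849 after depletion. All 4 depleted libraries were below all 4 control libraries. The decrease was 1.33-fold at 0 h (log2 change -0.41, SE 0.08, limma adjusted p = 0.0002) and 1.40-fold at 16 h (log2 change -0.49, SE 0.08, limma adjusted p = 3.3e-05).

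HBEGF (NM_001945, hg19 chr5:139712428-139726188, minus strand), which encodes heparin-binding EGF-like growth factor, had 42.8 and 48.5 normalized reads in untreated and 90.9 and 52.6 in treated control cells. After depletion it had 40.2 and 35.7 untreated and 73.8 and 88.9 treated. The treated control replicates differed most, and both treated depleted libraries fell between them. Its depletion changes were -0.26 at 0 h (SE 0.25, limma adjusted p = 0.409) and 0.22 at 16 h (SE 0.25, limma adjusted p = 0.485), and neither passed the test.

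EREG (NM_001432, hg19 chr4:75230860-75254477, plus strand), which encodes epiregulin, was weakly expressed. It had 8.71 and 12.1 normalized reads in untreated control cells and 9.38 and 6.86 after depletion, which overlapped. With TNF-α it had 20.3 and 25.6 in the control and 8.38 and 8.64 after depletion, which did not. EREG was 2.70-fold lower at 16 h (log2 change -1.32, SE 0.42, limma adjusted p = 0.013) and had a log2 change of -0.32 at 0 h (SE 0.42, limma adjusted p = 0.543). The difference between these effects was -1.0 (SE 0.59, limma adjusted p = 0.507), so the depletion effects at 0 h and 16 h were not shown to differ. The 16 h call was lost without replicate B of the treated control cells (limma adjusted p = 0.081) and with DESeq2 (adjusted p = 0.077).

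BTC (NM_001316963, hg19 chr4:75669970-75719896, minus strand), which encodes betacellulin, had 12 and 4 reads in untreated and 1 and 2 in treated control cells. After depletion it had 2 and 0 untreated and 2 in each treated replicate. All groups but the untreated control were at the level of single reads. The 16 reads against 2 at 0 h correspond to an 8.72-fold difference, given without a test because BTC was kept through that untreated control group.

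NRG1, which encodes a ligand of ERBB3 and ERBB4, and EPGN, which encodes epigen, had 0 reads in all 8 libraries, which allows up to 2.01 to 4.54 normalized reads per library (3 reads). AREG (NM_001657), which encodes amphiregulin, had 2 and 1 reads in treated mutp53-depleted cells and 0 in the other 6 libraries. The table counts AREG on 2 copies of the gene model on chromosome 4, so its reads are uncertain where a read maps to both. At this depth no difference in NRG1 or EPGN was detectable between groups. With no filter on the mean, limma added AREG to the calls at 16 h, on these 3 reads.

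TNF-α raised EGFR and lowered ERBB2 in control and in mutp53-depleted cells, whereas its effect on ERBB3 differed between them. In control cells 1 of the 6 members was called (EGFR, higher), against 7.24% of all tested genes, 2.97% higher and 4.27% lower. In mutp53-depleted cells 2 were called (HBEGF higher, ERBB3 lower), against 6.36% of all genes, 1.86% higher and 4.50% lower. By the adjusted p without the fold, 2 members rose and 1 fell in the control, against 11.1% and 15.2% of all genes, and 2 rose and 2 fell after depletion, against 9.80% and 16.9%. The TNF-α and depletion comparisons share their libraries, so they are not independent of each other.

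EGFR rose 2.05-fold with TNF-α in control cells (log2 change 1.04, SE 0.09, limma adjusted p = 8.2e-08) and 1.56-fold in mutp53-depleted cells (log2 change 0.64, SE 0.09, limma adjusted p = 3.8e-05). Both depleted libraries at 16 h remained below the control libraries at 0 h. The increase in control cells was just past 2-fold, and without replicate A of untreated or of treated control cells its log2 change was 0.91 or 0.97. ERBB2 was 1.66-fold lower after TNF-α in control cells (log2 change -0.73, limma adjusted p = 2.3e-06) and 1.76-fold lower in mutp53-depleted cells (log2 change -0.81, limma adjusted p = 7.9e-07). The difference between these responses was -0.08 (SE 0.12, limma adjusted p = 0.836).

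ERBB3 was 2.10-fold lower after TNF-α in mutp53-depleted cells (log2 change -1.07, SE 0.11, limma adjusted p = 9.6e-07), while its log2 change in control cells was -0.22 (SE 0.11, limma adjusted p = 0.164). The difference between the responses was -0.85 (SE 0.16, limma adjusted p = 0.0046). ERBB3 was the only 1 of the 6 members to pass this interaction test, which 2.86% of all genes passed, 2.21% with a lower and 0.655% with a higher value. It passed under each of the 17 alternatives that gave a value, with a difference between -1.02 and -0.68. Without replicate A of treated mutp53-depleted cells the change in these cells was -0.90, under 2-fold.

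Among the ligands, HBEGF rose 2.14-fold after TNF-α in mutp53-depleted cells (log2 change 1.08, SE 0.25, limma adjusted p = 0.0038) and had a log2 change of 0.59 in control cells (SE 0.25, limma adjusted p = 0.098). Its responses were not shown to differ (0.48, SE 0.36, limma adjusted p = 0.619). Without replicate B of untreated or of treated mutp53-depleted cells its change there was 0.99 or 0.94, under 2-fold. TGFA rose 1.18-fold in control cells (log2 change 0.24, SE 0.08, limma adjusted p = 0.027), which did not pass without replicate A or B of untreated or replicate A of treated control cells (limma adjusted p = 0.077, 0.113 and 0.134), and had a log2 change of 0.16 in mutp53-depleted cells (SE 0.08, limma adjusted p = 0.136). EREG was 2.20 times as high at 16 h as at 0 h in control cells, with no overlap (log2 change 1.08, SE 0.42, limma adjusted p = 0.066). It was called by the edgeR quasi-likelihood test (adjusted p = 0.031) and exact test (adjusted p = 0.024). Its log2 change in mutp53-depleted cells was 0.07 (SE 0.42, limma adjusted p = 0.92). BTC went from 16 to 3 reads in control cells, a 4.55-fold difference that is also given without a test.

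Levels were compared between genes as normalized reads per kb of exon, and the order of the receptors changed with TNF-α. In untreated control cells, ERBB2 at 278 ± 5.50 (SD, n = 2) and EGFR at 274 ± 33.03 (SD, n = 2) overlapped, followed by TGFA at 225 ± 2.10 and ERBB3 at 168 ± 17.6 without overlap. In treated control cells, EGFR at 561 ± 38.9 was above TGFA at 265 ± 12.5, ERBB2 at 168 ± 2.77 and ERBB3 at 144 ± 4.80. In untreated mutp53-depleted cells the order was ERBB2 at 183 ± 17.1, TGFA at 169 ± 0.73, EGFR at 108 ± 3.90 and ERBB3 at 54.2 ± 3.22. In the treated ones TGFA at 189 ± 11.96 and EGFR at 169 ± 18.7 overlapped, followed by ERBB2 at 104 ± 6.66, and ERBB3 at 25.9 ± 4.27 was below HBEGF at 34.6 ± 4.54. HBEGF was the fifth in the other 3 groups, between 16.1 and 30.5. EREG, at 1.76 to 4.97, and BTC, at 0.25 to 2.78, were at the bottom of the tested members, and they overlapped in untreated control cells.

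The summed level of the 3 receptors was 720 ± 56.1 normalized reads per kb (SD, n = 2) in untreated and 872 ± 36.9 in treated control cells, and 346 ± 9.97 in untreated and 300 ± 21.0 in treated mutp53-depleted cells. The sum was higher at 16 h than at 0 h in control cells and lower at 16 h than at 0 h in mutp53-depleted cells, with no overlap in either. EGFR made up 36.8% to 39.1% of the receptor sum in untreated and 63.0% to 65.5% in treated control cells, and 29.9% to 32.8% and 54.9% to 58.1% in mutp53-depleted cells. ERBB3 made up 22.9% to 23.8%, 15.6% to 17.4%, 14.7% to 16.7% and 7.30% to 10.1% in the same order of groups. The ratio of EGFR to ERBB2 per kb was 0.91 and 1.05 in untreated and 3.47 and 3.22 in treated control cells, and 0.54 and 0.65 in untreated and 1.67 and 1.57 in treated mutp53-depleted cells. TGFA was 82.6% to 91.0% of the sum of all 7 ligands in every library. In this sum AREG stands at its counted reads, which are uncertain, and NRG2 is left out. These are mRNA shares with no test, and they do not measure protein at the cell surface.

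**Figure D4:**
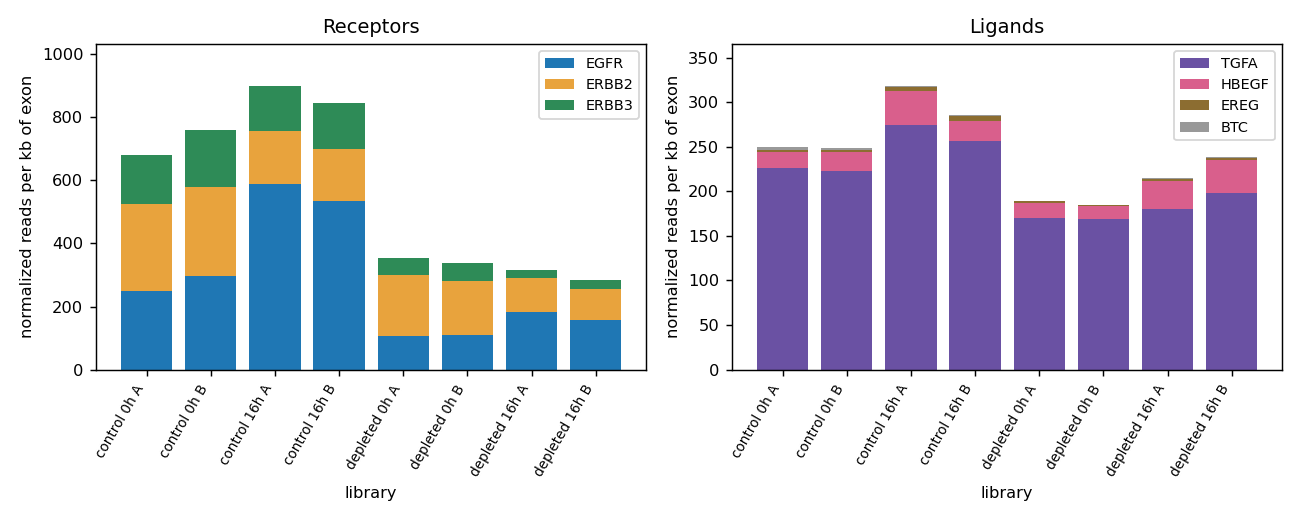
Stacked levels of the 3 receptors (left) and the 4 tested ligands (right) in each library, as normalized reads per kb of exon. The EGFR segment is largest in treated control cells, the receptor stacks of mutp53-depleted cells reach at most 353 and those of control cells at least 680, and TGFA fills at least 82.6% of every ligand stack.

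Of the other family members, ERBB4 and NRG3 had no reads, EGF had between 1 and 3 reads per group and NRG4 between 0 and 7. NRG2, a neuregulin, was the only 1 of these 5 genes above the mean of 2.5. Its group means were 87.1 ± 3.16 normalized reads (SD, n = 2) in untreated and 49.7 ± 10.2 in treated control cells, and 68.3 ± 13.3 in untreated and 45.2 ± 5.85 in treated mutp53-depleted cells. It fell after TNF-α in control cells (log2 change -0.81, limma adjusted p = 0.013), with a log2 change of -0.58 in mutp53-depleted cells (limma adjusted p = 0.071), and its depletion changes did not pass the test.

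The genes that release the ligands, carry the receptor signal, restrain it and respond to it were taken from lists of 80 genes, with the 5 other family members included, of which 73 were tested. At 0 h, 4 of them were called higher and 3 lower after depletion, and at 16 h 4 higher and 2 lower, which is 9.60% and 8.20% of them, against 15.4% and 15.2% of all tested genes. With the median of the neighbors removed 4 were called at 0 h, where the calls over all 14800 genes also went down, from 2285 to 1754. Without the fold, 33 (45.2%) rose and 16 (21.9%) fell at 0 h, against 27.3% and 25.2% of all genes, and 32 (43.8%) rose and 16 (21.9%) fell at 16 h, against 24.9% and 26.5%. The median log2 change of the 73 genes was 0.18 at 0 h and 0.19 at 16 h, and that of all genes 0.028 and -0.007.

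In the shedding list, 7 of 9 genes were tested and 2 (28.6%) were called lower at both times, against 9.55% of all genes at 0 h and 10.2% at 16 h. They were ADAM15, a membrane metalloprotease (log2 changes -1.14 and -1.06), and RHBDF1, an inactive rhomboid that guides ADAM17 to the surface (-1.14 and -1.28). By the adjusted p without the fold, 1 gene of this list (14.3%) rose and 5 (71.4%) fell at 0 h, against 27.3% and 25.2% of all genes, and 0 rose and 4 (57.1%) fell at 16 h, against 24.9% and 26.5%. ADAM17, the main sheddase of TGF-α, HB-EGF and epiregulin, rose by 0.32 at 0 h (limma adjusted p = 0.0098) and had a change of 0.11 at 16 h (limma adjusted p = 0.378). ADAM10, which sheds betacellulin, had changes of -0.31 and -0.29 (limma adjusted p = 0.0021 and 0.0041). The neighborhood medians of ADAM15 and RHBDF1 were -0.35 and -0.47.

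All 26 genes of the receptor signaling list were tested. Those called higher at 0 h included the adaptor GAB2 (log2 change 1.73) and the PI3-kinase subunit PIK3CA (1.07), whose changes at 16 h were 0.86 and 0.83, under 2-fold. The neighborhood medians were 0.23 for GAB2 and 0.76 for PIK3CA. At the adjusted p alone 14 (53.8%) rose and 4 (15.4%) fell at 0 h, against 27.3% and 25.2% of all genes, and 12 (46.2%) rose and 6 (23.1%) fell at 16 h, against 24.9% and 26.5%.

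In the feedback and turnover list 23 of 24 genes were tested. DUSP6, a phosphatase of ERK, was called higher at 0 h (log2 change 1.62) and 16 h (1.46), with 2578 ± 7.41 normalized reads (SD, n = 2) in the untreated control and 7933 ± 142 after depletion. CBLB, a ubiquitin ligase (1.27), and ERRFI1, an inhibitor of the EGFR kinase (1.03), were called higher at 16 h. Without the fold 11 genes (47.8%) rose and 4 (17.4%) fell at 0 h, against 27.3% and 25.2% of all genes, and 10 (43.5%) rose and 3 (13.0%) fell at 16 h, against 24.9% and 26.5%. Neighborhood medians were 0.54 for DUSP6, 0.74 for CBLB and 0.03 for ERRFI1.

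The list of immediate early and ERK-induced genes, all 16 tested, had PHLDA1 called lower at 0 h (log2 change -1.03) and no call at 16 h. Without the fold 7 of them (43.8%) rose and 3 (18.8%) fell at 0 h, against 27.3% and 25.2% of all genes, and 10 (62.5%) rose and 3 (18.8%) fell at 16 h, against 24.9% and 26.5%. After TNF-α in control cells 2 were called higher, the AP-1 subunits JUNB (1.32) and FOSL1 (1.28), and 3 lower, the transcription factors FOS (-1.81), EGR3 (-1.52) and EGR1 (-1.45), or 31.2% of the list against 7.24% of all genes. In mutp53-depleted cells FOSL1 (1.59), JUN (1.19) and JUNB (1.18) were called higher and FOS (-1.57) lower, or 4 of the 16 against 6.36% of all genes. Of the other lists, DUSP5, a nuclear phosphatase of ERK, was called higher in control (1.37) and mutp53-depleted cells (1.22), and the adaptor GAB1 lower in mutp53-depleted cells (-1.08). Over all 73 genes 3 were called higher and 3 lower in control cells, and 4 higher and 2 lower in mutp53-depleted cells, or 8.20% of them in each, near the 7.24% and 6.36% of all genes.

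The response to TNF-α differed between the cells for 6 of the 73 pathway genes (8.20%), against 2.86% of all tested genes, 0.655% with a higher and 2.21% with a lower value. EGR1 (0.84) and PHLDA1 (0.53) had a higher value in mutp53-depleted cells. The PI3-kinase subunit PIK3R1 (-0.76), the GTPase NRAS (-0.45) and the ERK pathway kinase MAP2K1 (-0.44) were among those with a lower one. The TNF-α response of PIK3R1 was 0.99 in the control and 0.23 after depletion (log2), and that of MAP2K1 was 0.96 and 0.51. This count was lower whenever a library was left out, and so was the count over all genes. Such a fit leaves 1 library in a group.

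**Figure D5:**
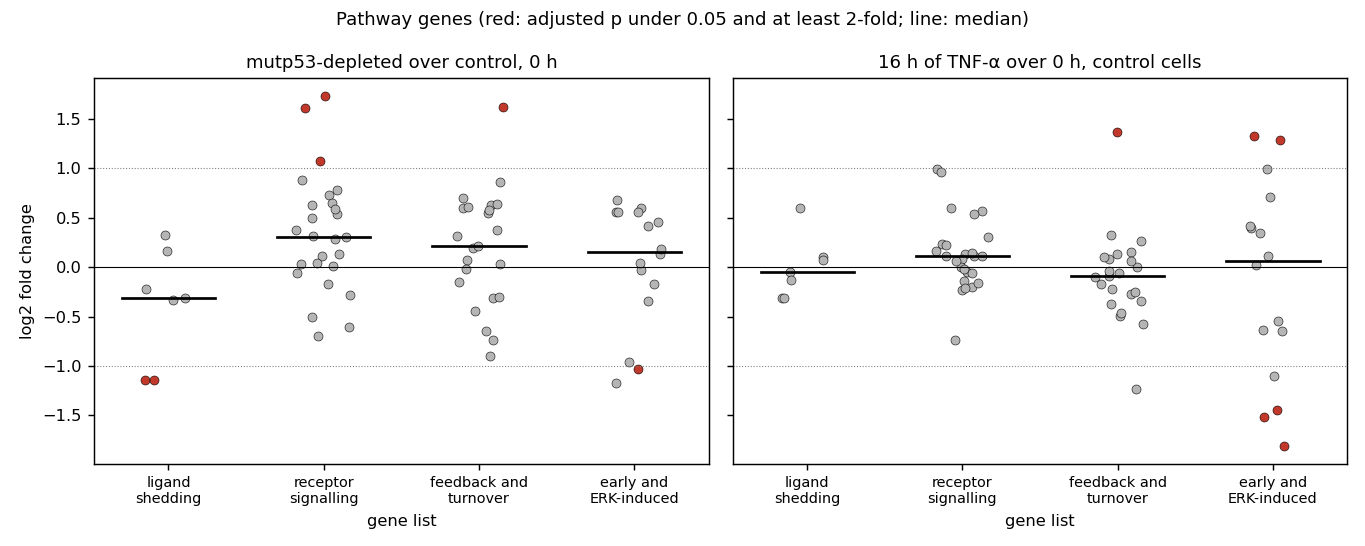
Log2 fold change of each tested gene of 4 pathway lists, for mutp53-depleted over untreated control cells (left) and for 16 h of TNF-α over 0 h in control cells (right). Red points passed an adjusted p under 0.05 and 2-fold, grey points did not, bars are list medians and dotted lines mark 2-fold. GAB2 at 1.73 is the highest point at left, and FOS at -1.81 is the lowest at right.

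Across the 8 libraries, the genes whose log2 values followed EGFR most closely among the 14800 tested were SFRP5, CPTP and ASL, with Pearson correlations of 0.995, 0.993 and 0.992, and 191 genes exceeded 0.95. Those closest to EREG were LOC284454, ATG2A and RRAS, at 0.984, 0.974 and 0.972, and 11 genes exceeded 0.95. The points are the same 8 libraries in 4 groups of 2, so that any gene with the same differences between groups has a high correlation, and no test was made.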

How the data were processed

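Strand-specific poly(A) mRNA-seq libraries of 4 groups with 2 biological replicates were analysed, and the replicate letters come only from the table's column names. Single-end reads of 50 bases were mapped by the authors with STAR, and HOMER counted them on RefSeq exons. The signal values the authors deposited are these reads multiplied by 1 factor per library. The table's coordinates are hg19, while the Methods of the study name hg38. Reads were recovered by dividing by the value of 1 read, and at least 99.981% of values per library came out whole, within 0.02 reads or the rounding of the table. Exon lengths in the other column that the authors deposited gave levels per kb. The authors' columns of fold changes and p-values for 4 comparisons were not used, nor were the ChIP-seq and GRO-seq experiments.

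Members and lists were chosen with earlier results of these data known. Genes with a mean of at least 2.5 were compared as log2(value + 1) with limma 3.58.1 (lmFit, contrasts.fit and a trended eBayes; R 4.3.3), with the 4 group means over 8 libraries and Benjamini-Hochberg adjustment. The rule was an adjusted p under 0.05 and 2-fold, or the adjusted p alone for the interaction (depletion at 16 h less depletion at 0 h). The rise or fall of a gene is stated at the adjusted p alone. All members were named, and BTC was left out of the counts after its values were seen. Pathway genes were named as the 3 called genes of largest change per direction and comparison, plus every called shedding gene. PIK3CA, ERRFI1 and JUNB in mutp53-depleted cells were named to fill small counts, results for some genes under this rule are not reported here, and ADAM10, ADAM17, NRG2 and the genes ERBB4, EGF, NRG3 and NRG4 were added after their values were seen. The correlations for AREG were not computed, since it was not tested. On simulated data for depletion at 0 h, with 14823 genes tested, limma called 200 of 200 changed genes and made 4 false calls among the unchanged ones. The changed genes had at least 50 expected reads and changes of 3-fold or 4-fold. All genes were drawn with the same spread between replicates, so genes with a larger spread were not covered. Smaller changes and genes with few reads, both found among the members, were not checked in this way. Alternatives were pseudocounts of 0.1 and 5, a minimum mean of 10 or none, median ratio scaling, a replicate block, edgeR 4.0.16 (quasi-likelihood and exact tests) and DESeq2 1.42.0 on recovered reads, the median of 50 neighboring genes removed, and each library left out.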

Additional observations from a re-analysis of the deposited data

Results flagged for a closer look

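The depletion effect differed between 16 h and 0 h, by the limma interaction test, for ERBB3 and 5 of the pathway genes described. ERBB3 had a difference of -0.85 (log2, limma adjusted p = 0.0046), with lower values in both mutp53-depleted replicates at 16 h than in both at 0 h. Among the pathway genes the difference was 0.84 for EGR1 (limma adjusted p = 0.00025), 0.53 for PHLDA1 (0.0035), -0.76 for PIK3R1 (0.0058), -0.44 for MAP2K1 (0.04) and -0.45 for NRAS (0.046). No group had enough libraries for a test of single outlying libraries.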

How the results depend on the processing

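The 35 member effects, those of BTC included, were compared with the alternatives. Of 334 comparisons with alternatives other than leaving out a library, 327 kept their direction and side of the threshold. In the rest, 4 lost the call, 2 gained it and 1 reversed. Of 280 that left out a library, 267 kept both, 8 lost the call and 5 reversed. An effect that stayed uncalled in the same direction counted as kept. BTC gave 3 of the lost calls (depletion at 0 h) and 3 of the reversals (depletion at 16 h). The number of members called after TNF-α in control cells was 2 with either edgeR test, where EREG was added, and ranged from 0 to 1 when a library was left out (0 without replicate A of either control group). In mutp53-depleted cells it ranged from 1 to 2 (1 without replicate B of the 0 h group or either replicate of the 16 h group). The number of pathway genes called at 0 h was 4 with the median of neighbors removed, where 1754 instead of 2285 of all genes were called. The number in the interaction was lower whenever a library was left out, as was the number over all genes. Reversals were of changes that did not pass the test. The BTC change at 16 h was -0.08 with the median of neighbors removed. When a library was left out it ranged from -0.34 to 0.63, the ERBB2 interaction from -0.18 to 0.01, the EREG response in mutp53-depleted cells from -0.13 to 0.27 and the HBEGF depletion change at 16 h from -0.16 to 0.61. The cause was not tested. Levels per kb moved by at most 2.8% with median ratio scaling, 3 of 28 by more than 1 SD. With the replicate block, members called (BTC at 0 h counted) stayed at 3 and 3 for depletion at 0 h and 16 h, 1 and 2 for TNF-α in control and mutp53-depleted cells and 1 for the interaction, and pathway genes called in the interaction were 8. Over all genes, 424 passed the interaction test without the block and 559 with it. The deviations of same-lettered replicates from their group means correlated between -0.02 and 0.07. No label pairs the letters, but replicate A was the larger library of every group. A mean of at least 10 gave no value for BTC, and the exact test none for the interaction. With 2 libraries per group, p-values rest on a spread shared over all groups, and the depth left EREG at 6.86 to 25.6 normalized reads, BTC at 0 to 8.71 and 3 ligands at or under 2 reads.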
